A study of Mus musculus with 4 samples.

Results

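The 7 listed members of the mouse Siglec family, Siglech, Cd33, Siglece, Siglecf, Siglecg, Siglec1 and Cd22, were described from ATAC-seq peak lists of microglia with and without IRF8. ATAC-seq marks accessible chromatin by the insertions of the Tn5 transposase. Members were all deposited peaks that overlapped a gene body or the 10 kb on either side of it, on GRCm38 with the GENCODE M21 annotation. These numbered 44 of 143525 and 59 of 177972 peaks in WT replicates 1 and 2, and 53 of 180970 and 47 of 173590 in IRF8KO replicates 1 and 2. Strict peaks, those with a −log10 q of at least 2, were merged over the libraries into 155546 regions, of which 52 lay in the 7 windows. The value of a region in a library, its normalised pileup, is the depth of extended cut sites at the summit of its tallest listed peak, divided by the tags of that library and multiplied by 1000000. It is 0 where the list holds no peak, which says that none was called and not that the DNA was closed.

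Both groups were untreated microglia sorted by flow cytometry from 3-month-old C57BL/6 mice. They differed in genotype, given as WT and as IRF8KO, with 2 libraries each. How the Irf8 allele was disrupted is not given in the sources used here, and the labels do not say whether replicates came from separate mice, so the tests measure the spread between these libraries. The lists rest on bulk DNA, in which more cells of a type with an open site and a more open site per cell cannot be told apart.

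Siglecs are cell-surface lectins that bind sialic acid, the sugar that caps many glycans on vertebrate cells. Most carry inhibitory tyrosine motifs in the cytoplasmic tail, which recruit the phosphatases SHP-1 and SHP-2 and dampen phagocytosis and inflammatory signalling. A few, such as Siglec-H, lack these motifs and pair instead with the adaptor DAP12. In the brain, sialic acid on neurons and glia is thought to restrain microglia through such receptors. IRF8 is a transcription factor of the macrophage lineage that binds with PU.1 at ETS-IRF composite sequences.

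The following stretches carry the regions that the results below turn on. Each is centred on the summit of the tallest peak, from the GRCm38 genome, and capitals mark matches to the searched motifs, which may lie on either strand. The first had a peak only in the WT libraries and holds an ISRE match, GAAANNGAAA. The other ISRE match among the 52 regions lay upstream of Siglec1, in a region with peaks in all 4 libraries.

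Cd22 upstream region, chr7:30882175-30882375, plus strand: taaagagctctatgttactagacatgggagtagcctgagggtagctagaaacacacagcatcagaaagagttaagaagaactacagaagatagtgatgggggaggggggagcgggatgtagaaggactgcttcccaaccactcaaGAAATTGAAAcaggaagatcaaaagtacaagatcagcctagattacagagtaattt

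The next lay upstream of Siglech, had peaks in WT alone and holds an ETS-IRF match, GGAANNGAAA, as its reverse complement. That at the most upstream Cd33 start holds the same motif 2 bp from the summit and a PU.1 match, GAGGAAGT, also as reverse complements, and had peaks in all 4 libraries.

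Siglech upstream region, chr7:55767040-55767240, plus strand: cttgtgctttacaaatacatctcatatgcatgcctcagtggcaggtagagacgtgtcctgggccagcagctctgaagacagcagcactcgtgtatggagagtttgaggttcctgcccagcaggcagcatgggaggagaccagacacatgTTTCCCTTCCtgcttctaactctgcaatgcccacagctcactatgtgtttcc

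Cd33 start region, chr7:43544636-43544836, plus strand: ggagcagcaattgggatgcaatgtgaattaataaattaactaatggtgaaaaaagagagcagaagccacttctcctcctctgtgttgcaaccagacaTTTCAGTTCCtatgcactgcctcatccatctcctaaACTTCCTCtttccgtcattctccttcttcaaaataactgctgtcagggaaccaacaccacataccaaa

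The last 3 are the Cd33 exon region that rose on the centred scale, with an AP-1 match, TGANTCA, and the regions with the largest tested differences in each direction, which hold none of the 7 motifs. The Siglech stretch is shortened to 50 bases on each side of the summit.

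Cd33 exon region, chr7:43530400-43530600, plus strand: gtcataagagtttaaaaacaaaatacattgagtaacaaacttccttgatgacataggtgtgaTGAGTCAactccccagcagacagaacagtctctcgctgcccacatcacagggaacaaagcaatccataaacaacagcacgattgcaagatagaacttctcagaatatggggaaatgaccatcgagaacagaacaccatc

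Siglech 3′ flank region, chr7:55779471-55779571, plus strand: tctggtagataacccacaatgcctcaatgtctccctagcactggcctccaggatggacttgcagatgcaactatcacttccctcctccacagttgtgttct

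Siglece 3′ flank region, chr7:43643293-43643493, plus strand: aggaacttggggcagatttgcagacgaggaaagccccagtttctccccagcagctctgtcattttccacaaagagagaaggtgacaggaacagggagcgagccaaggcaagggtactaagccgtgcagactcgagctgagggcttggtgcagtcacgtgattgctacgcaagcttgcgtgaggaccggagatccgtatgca

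Over the 52 summit windows of 201 bp, the ETS-IRF sequence was found in 2, or 3.85%, against 4.31% of all 155546 windows, and the ISRE in 2, or 3.85%, against 3.12%. PU.1 was found in 4 (7.69% against 7.73%), AP-1 in 4 (7.69% against 8.12%), CEBP (TTGCNNAA) in 3 (5.77% against 9.54%), RUNX (TGTGGTT) in 3 (5.77% against 5.57%) and MAF (TGCTGAC) in 2 (3.85% against 5.02%). Both strands were searched, and a sequence can match more than 1 motif. Of the 7 genes, 6 had promoter sequences in the RefSeq table of GRCm38.p6, in 7 entries of 300 bases. CEBP and RUNX matches were found in that of Siglech, against 10.8% and 5.27% of 32851 promoters, and the other 6 entries held no match to the 7 motifs.

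Siglech and Cd33 were the most accessible windows and Cd22 the least. Per 10 kb of window, the summed normalised pileup of Siglech was 4.99 and 4.0 in the WT libraries, replicate 1 before replicate 2 here and throughout, against 2.67 and 4.16 in IRF8KO. That of Cd33 was 4.0 and 2.81 in WT and 2.69 and 4.07 in IRF8KO, overlapping that of Siglech. Siglecf, at 1.45 to 2.45 over the 4 libraries, and Siglece, at 1.46 to 2.90, overlapped each other, as did Siglec1 (1.03 to 1.53) with both of them. Siglecg lay at 1.15 and 0.990 in WT and 0.400 and 0.796 in IRF8KO, and Cd22 at 0.768 and 0.755 in WT and 0.247 and 0.350 in IRF8KO.

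**Figure D1:**
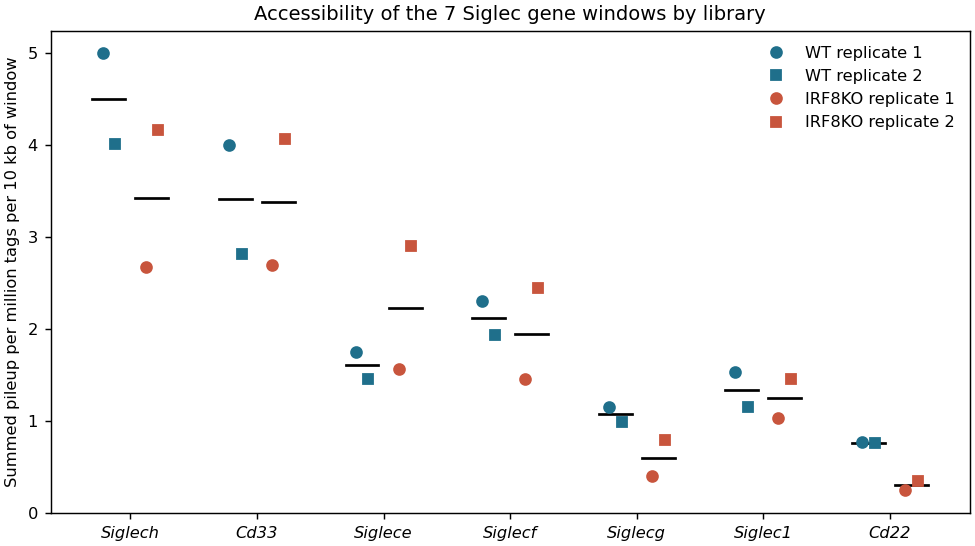
Summed normalised pileup per 10 kb of window (vertical axis) for each gene, with a point for each library and a bar for the mean of each genotype. The WT and IRF8KO libraries do not overlap for Siglecg and Cd22, and overlap for the other 5 genes.

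Both IRF8KO libraries lay below both WT libraries for 2 of the 7 genes, Cd22 and Siglecg, and above them for 0. Of 18496 windows of protein-coding genes, 37.4% lay below in this way and 6.41% above. Over the Cd22 window the summed normalised pileup came to 2.66 ± 0.0322 for WT against 1.04 ± 0.255 for IRF8KO (SD, n = 2 each). The exact permutation test, two-sided, gave p = 0.33, and 2 against 2 libraries allow none smaller. For Siglecg it was 3.23 ± 0.344 and 1.80 ± 0.845 (SD, n = 2 each), with the same exact p. For the other genes the libraries overlapped, at 13.8 ± 2.15 and 10.5 ± 3.26 for Siglech, 13.7 ± 3.37 and 13.6 ± 3.91 for Cd33, 4.66 ± 0.606 and 6.48 ± 2.75 for Siglece, 5.97 ± 0.717 and 5.49 ± 1.99 for Siglecf and 5.02 ± 1.0 and 4.67 ± 1.12 for Siglec1 (WT, then IRF8KO, SD, n = 2 each). Over the 7 genes the adjusted exact permutation p was 0.933 for each but Cd33 and Siglecf, at 1. As log2 ratios of IRF8KO to WT, with 0.1 added to each mean, these were -1.27 for Cd22, -0.81 for Siglecg, -0.39 for Siglech, -0.12 for Siglecf, -0.10 for Siglec1, -0.01 for Cd33 and 0.47 for Siglece. Over the 18496 windows the median ratio was -0.30, and the 10th and 90th percentiles were -0.97 and 0.37. Regions without a called peak enter these sums as 0, so the ratios also move with how many peaks were called. With 1 library left out, the difference in summed level turned sign for 4 genes. It ran from -0.119 to 3.76 for Siglece, -2.87 to 2.66 for Cd33, -1.88 to 0.933 for Siglecf and -1.14 to 0.444 for Siglec1. It stayed below 0 for the other 3, from -5.64 to -1.03 for Siglech, -2.02 to -0.828 for Siglecg and -1.80 to -1.44 for Cd22.

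Of the 52 regions, 21 (40.4%) held a strict peak in all 4 libraries, against 31.0% of all regions. WT-specific regions, strict in each WT library and without any listed peak in IRF8KO, numbered 2 (3.85%, against 5.58% of all regions). The converse IRF8KO-specific regions numbered 3 (5.77%, against 3.86%). Deposited peaks were found in all 4 libraries at 30 regions, and these were tested with limma on log2(normalised pileup + 0.1) in a fit of all 58550 such regions. By Benjamini-Hochberg adjusted p below 0.05, 2 of the 30 were lower in IRF8KO (6.67%, against 6.73% of all tested regions) and 1 was higher (3.33%, against 2.84%). These shares were near those of all tested regions. Both IRF8KO libraries lay below both WT libraries at 9 of the 30 (30%, against 37.1% of all tested regions) and above them at 4 (13.3%, against 11.9%). The median log2 difference was -0.33 over the 30 and -0.26 over all tested regions.

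The median log2 value over all tested regions was -0.88 in IRF8KO replicate 1, against -0.21 to -0.49 in the other 3 libraries, and without that library the median difference was -0.06. Differences are therefore also given after each library was centred on its own median, as differences from the typical region. On that scale 6 of the 30 were lower (20%, against 12.4% of all) and 4 were higher (13.3%, against 13.3%), and the median over the 30 was -0.07. The 7 regions called after centring but not as scaled to tags also passed after quantile normalization, and did not pass with the deposited fold enrichment in place of pileup, at adjusted p of 0.141 to 0.749. Lower calls made up 70.3% of all calls in the genome as scaled to tags and 48.3% after centring. Each of the 3 calls as scaled to tags was lost when WT replicate 1 or 2 was left out. Such a fit takes its spread from the IRF8KO pair and assumes that the lone WT library varies alike. Its log2 differences, without WT replicate 1 and then without WT replicate 2, were -1.48 and -1.77 for the Siglech 3′ flank region, -1.21 and -1.39 for the called Cd22 region and 1.54 and 1.04 for the Siglece 3′ flank region. Without WT replicate 1 the fit called 162 regions lower and 115 higher in the whole genome, and without WT replicate 2 it called 525 and 126, against 3941 and 1662 with all libraries.

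**Figure D2:**
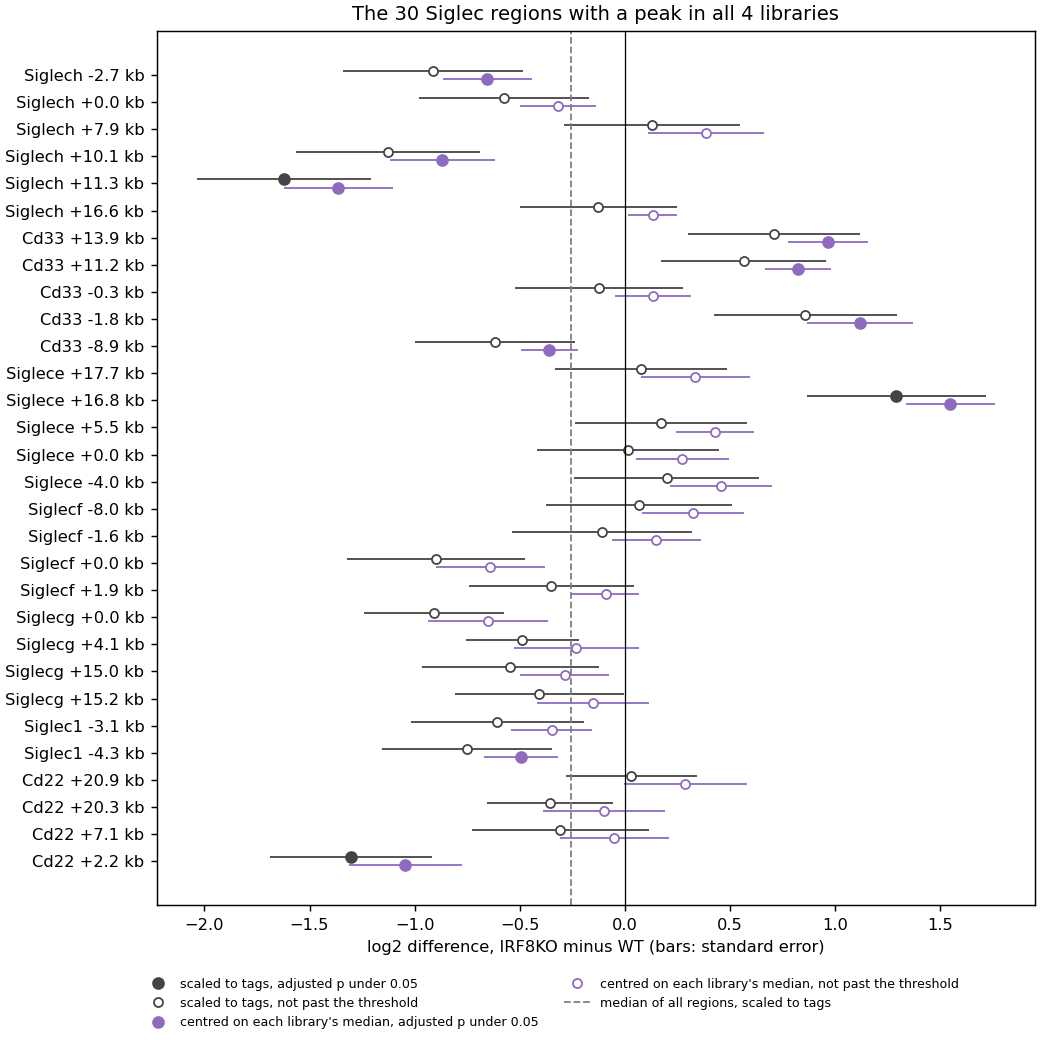
The log2 difference of IRF8KO minus WT (horizontal axis, bars give the standard error) for the 30 regions, named by gene and summit distance from the gene start. Filled points pass an adjusted p of 0.05; 3 regions pass as scaled to tags and 10 after centring, and the dashed line marks the median of all tested regions, -0.26.

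Siglech (plus strand of chromosome 7, 55768178 to 55778925) encodes the DAP12-coupled receptor used as a marker of microglia and plasmacytoid dendritic cells. Its start and its strongest flanking region had peaks in every library, whereas a pair of regions around its 3′ end were lower in both IRF8KO libraries, of which 1 passed as scaled to tags. The region over the start, at 55767875 to 55768465, overlapped untranslated and coding exon sequence. Its normalised pileup was 3.05 and 2.27 in WT, against 1.24 and 2.40 in IRF8KO. The genotypes overlapped, with a log2 difference of -0.57 ± 0.40 (SE) and an adjusted p of 0.462. The difference was -0.13 without IRF8KO replicate 1 and -1.02 without IRF8KO replicate 2, where it passed (adjusted p 0.0279). Over the 4 libraries the start regions most like it by Euclidean distance, among 12024 protein-coding genes, were those of Sec63 (distance 0.111 on the log2 scale), Ppp2cb (0.133) and Irf2bpl (0.146).

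The tallest Siglech region lay 5834 bp past the gene end, between genes, at 55784464 to 55785157. It stood at 7.94 and 6.40 in WT against 5.56 and 7.67 in IRF8KO, and its mean was the highest of the 52 regions. It differed by -0.13 ± 0.37 (adjusted p 0.892). The region 596 bp past the gene end, at 55779411 to 55779686, stood at 0.873 and 0.695 in WT and at 0.140 and 0.242 in IRF8KO. It fell on the log2 scale by -1.62 ± 0.41 (SE, adjusted p 0.00246), and by -1.36 ± 0.26 after centring (adjusted p 4.07e-05). Without WT replicate 1 the adjusted p was 0.404, and without WT replicate 2 it was 0.152.

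In untranslated sequence near the 3′ end, at 55778157 to 55778368, the values were 0.852 and 0.716 in WT and 0.241 and 0.378 in IRF8KO. Both IRF8KO libraries lay below both WT libraries, but the difference of -1.13 ± 0.44 passed after centring and not as scaled to tags (adjusted p 0.00639 and 0.0828). It also passed without the trend in the variance prior (adjusted p 0.0208) and without IRF8KO replicate 2 (adjusted p 0.00569). The region 2707 bp upstream of the start stood at 1.68 and 1.55 in WT and 0.584 and 1.12 in IRF8KO and passed after centring and not as scaled to tags (adjusted p 0.0164 and 0.186). Its difference of -0.91 was -0.50 without IRF8KO replicate 1 and -1.33 without IRF8KO replicate 2 (adjusted p 0.0044). The region with the ETS-IRF match, 1038 bp upstream at 55767090 to 55767239, stood at 0.341 and 0.429 in WT and had no deposited peak in IRF8KO. Its WT replicate 1 peak was not strict, so it is not counted as WT-specific. The WT peaks were low over their surroundings, with pileups of 16 and 21 at fold enrichments of 2.12 and 3.01, as deposited. An intronic region 6706 bp past the start showed the converse, with no peak in WT and 0.165 and 0.287 in IRF8KO.

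Cd33 (minus strand of chromosome 7, 43524216 to 43544428) encodes Siglec-3, whose human counterpart is an Alzheimer's disease risk gene. Its summed level differed by -0.106 as scaled to tags and by 2.18 after centring. None of its 5 tested regions passed as scaled to tags. After centring 3 were higher in IRF8KO and 1 was lower, against 13.3% higher and 12.4% lower among all tested regions. The region over the start used in RefSeq, at 43533034 to 43533615, stood at 3.02 and 2.11 in WT and at 3.05 and 4.71 in IRF8KO. Both IRF8KO libraries lay above both WT libraries, the lower by a narrow margin. The difference was 0.57 ± 0.39 as scaled to tags (adjusted p 0.454) and 0.83 ± 0.16 after centring (adjusted p 4.61e-05). It was 0.17 with the deposited fold enrichment (adjusted p 0.749), 0.26 without IRF8KO replicate 2 and 0.87 without IRF8KO replicate 1 (adjusted p 0.0927).

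A region over a non-coding Cd33 exon, at 43530307 to 43530759, held the AP-1 match shown above. It stood at 1.75 and 1.10 in WT and 1.76 and 3.10 in IRF8KO, a difference of 0.71 ± 0.41 (adjusted p 0.33) and of 0.97 ± 0.19 after centring (adjusted p 6.50e-05). It was 0.35 with the deposited fold enrichment (adjusted p 0.622), 0.32 without IRF8KO replicate 2 and 1.10 without IRF8KO replicate 1, where it passed (adjusted p 0.0272). A region 1767 bp upstream of the most upstream annotated start gave 0.341 and 0.348 in WT and 0.622 and 0.800 in IRF8KO, and passed after centring and not as scaled to tags (adjusted p 0.000486 and 0.242). In contrast, the tallest region of the window, 8871 bp upstream at 43553097 to 43553732, stood at 6.79 and 5.13 in WT and 3.15 and 4.62 in IRF8KO. It was lower after centring, by -0.36 ± 0.14 (adjusted p 0.0428), and did not pass as scaled to tags (adjusted p 0.381).

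The region at the most upstream Cd33 start, at 43544326 to 43545052, overlapped between genotypes, at 3.64 and 1.88 in WT and 1.94 and 2.96 in IRF8KO (-0.12 ± 0.40, adjusted p 0.901). The difference was 0.17 without IRF8KO replicate 1 and -0.42 without IRF8KO replicate 2. It was 0.33 without WT replicate 1 and -0.58 without WT replicate 2. This is the region with the ETS-IRF and PU.1 matches. The 1 IRF8KO-specific region of Cd33 lay in an intron at 43538618 to 43538836 and was weak, at 0.165 and 0.166. At the WT tag numbers that level gives pileups of 7.77 and 8.09, close to the lowest pileup of 6 in either whole WT list.

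Siglece (minus strand of chromosome 7, 43651070 to 43660161) encodes an inhibitory receptor of neutrophils and macrophages. Its start region, at 43659895 to 43660339, overlapped between genotypes, at 1.02 and 0.879 in WT and 0.685 and 1.33 in IRF8KO (0.01 ± 0.43, adjusted p 0.990). The difference was 0.45 without IRF8KO replicate 1 and -0.42 without IRF8KO replicate 2. The tallest region, in an intron at 43654454 to 43654874, gave 2.04 and 1.45 in WT and 1.45 and 2.63 in IRF8KO (adjusted p 0.861). Its standard error was 0.41 on the log2 scale.

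The region that rose in the Siglece window lay 7677 bp past the gene end, at 43642674 to 43643763, in an intron of Ceacam18, a gene of the carcinoembryonic antigen adhesion family. It stood at 0.852 and 0.573 in WT and at 1.60 and 2.16 in IRF8KO, so that both IRF8KO libraries lay above both WT libraries. The log2 difference was 1.29 ± 0.43 (SE, adjusted p 0.0302) and 1.55 ± 0.21 after centring (adjusted p 5.98e-08). With the deposited fold enrichment in place of pileup it was 0.50 (adjusted p 0.361), without WT replicate 1 the adjusted p was 0.646 and without WT replicate 2 it was 0.832. A neighbouring region in the same intron, at 43642350 to 43642546, did not pass, at 0.447 and 0.307 in WT and 0.305 and 0.513 in IRF8KO.

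Siglecf (plus strand of chromosome 7, 43351341 to 43359531) encodes an inhibitory receptor known from eosinophils and alveolar macrophages. None of its 4 tested regions passed as scaled to tags or after centring. The tallest, in an intron at 43353125 to 43353504, stood at 3.90 and 3.07 in WT and 1.98 and 3.65 in IRF8KO (-0.35 ± 0.39, adjusted p 0.684). The start region, at 43351235 to 43351474, stood at 0.618 and 0.634 in WT and 0.190 and 0.423 in IRF8KO. Both IRF8KO libraries lay below both WT libraries there, with a difference of -0.90 ± 0.42 (adjusted p 0.192, and 0.0639 after centring). The difference was -0.47 without IRF8KO replicate 1 and -1.32 without IRF8KO replicate 2, where it passed (adjusted p 0.00761). Among 6 eosinophil or neutrophil markers, only S100a8 had a region over its start, at 0.123 to 0.257 over the 4 libraries, and Epx, Prg2, Ccr3, Ltf and Elane had none.

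Siglecg (plus strand of chromosome 7, 43408204 to 43418358) encodes an inhibitory receptor that limits B cell receptor signalling. None of its 4 tested regions passed as scaled to tags or after centring, and 1 of its 6 regions was WT-specific, as 5.58% of all regions were. The region over the most upstream start, at 43408119 to 43408334, stood at 0.341 and 0.409 in WT and 0.140 and 0.166 in IRF8KO, a difference of -0.91 ± 0.33 (adjusted p 0.0617, and 0.0916 after centring). It passed after quantile normalization (adjusted p 0.0414) and without IRF8KO replicate 2 (adjusted p 0.0397). The neighbouring region at 43408403 to 43408586, over a second annotated start and a coding exon, was WT-specific. It stood at 0.319 and 0.409 in WT and had no deposited peak in IRF8KO, where the WT level would give pileups of 28.7 and 24.1. The tallest region, 4866 bp past the gene end at 43423046 to 43423313, overlapped between genotypes, at 1.77 and 1.55 in WT and 0.685 and 1.75 in IRF8KO (adjusted p 0.517).

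Cd22 (minus strand of chromosome 7, 30865402 to 30880342) encodes the inhibitory co-receptor of the B cell receptor and is also expressed by microglia, in which it restrains phagocytosis. Of its 8 regions 1 was WT-specific, as 5.58% of all regions were. Of its 4 tested regions 1 was lower in IRF8KO by limma, as 6.73% of all tested regions were. Both lay in the upstream and 5′ part of the window. The WT-specific region 1933 bp upstream of the start, at 30882174 to 30882413, is the one shown above with an ISRE match. It stood at 0.554 and 0.573 in WT, pileups of 26 and 28, and neither IRF8KO list held a peak, where the WT level would give pileups of 44.4 and 37.3.

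The Cd22 region 2228 bp into the gene, at 30878016 to 30878275, lies over a further annotated start and a coding exon. It stood at 0.618 and 0.532 in WT, against 0.140 and 0.211 in IRF8KO. The difference was -1.30 ± 0.38 (SE, adjusted p 0.0119) and -1.04 ± 0.27 after centring (adjusted p 0.00214). Without WT replicate 1 the adjusted p was 0.504, without WT replicate 2 it was 0.243, and with the deposited fold enrichment it was 0.119. The region over the most upstream start, at 30880244 to 30880446, was weak in WT, at 0.149 and 0.245, and had no deposited peak in IRF8KO. A region in the gene body at 30873095 to 30873416 overlapped between genotypes, at 0.511 and 0.450 in WT and 0.241 and 0.544 in IRF8KO (adjusted p 0.745). The B cell markers Cd79a, Cd79b, Ms4a1 and Pax5 had no region over the start in any library.

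**Figure D3:**
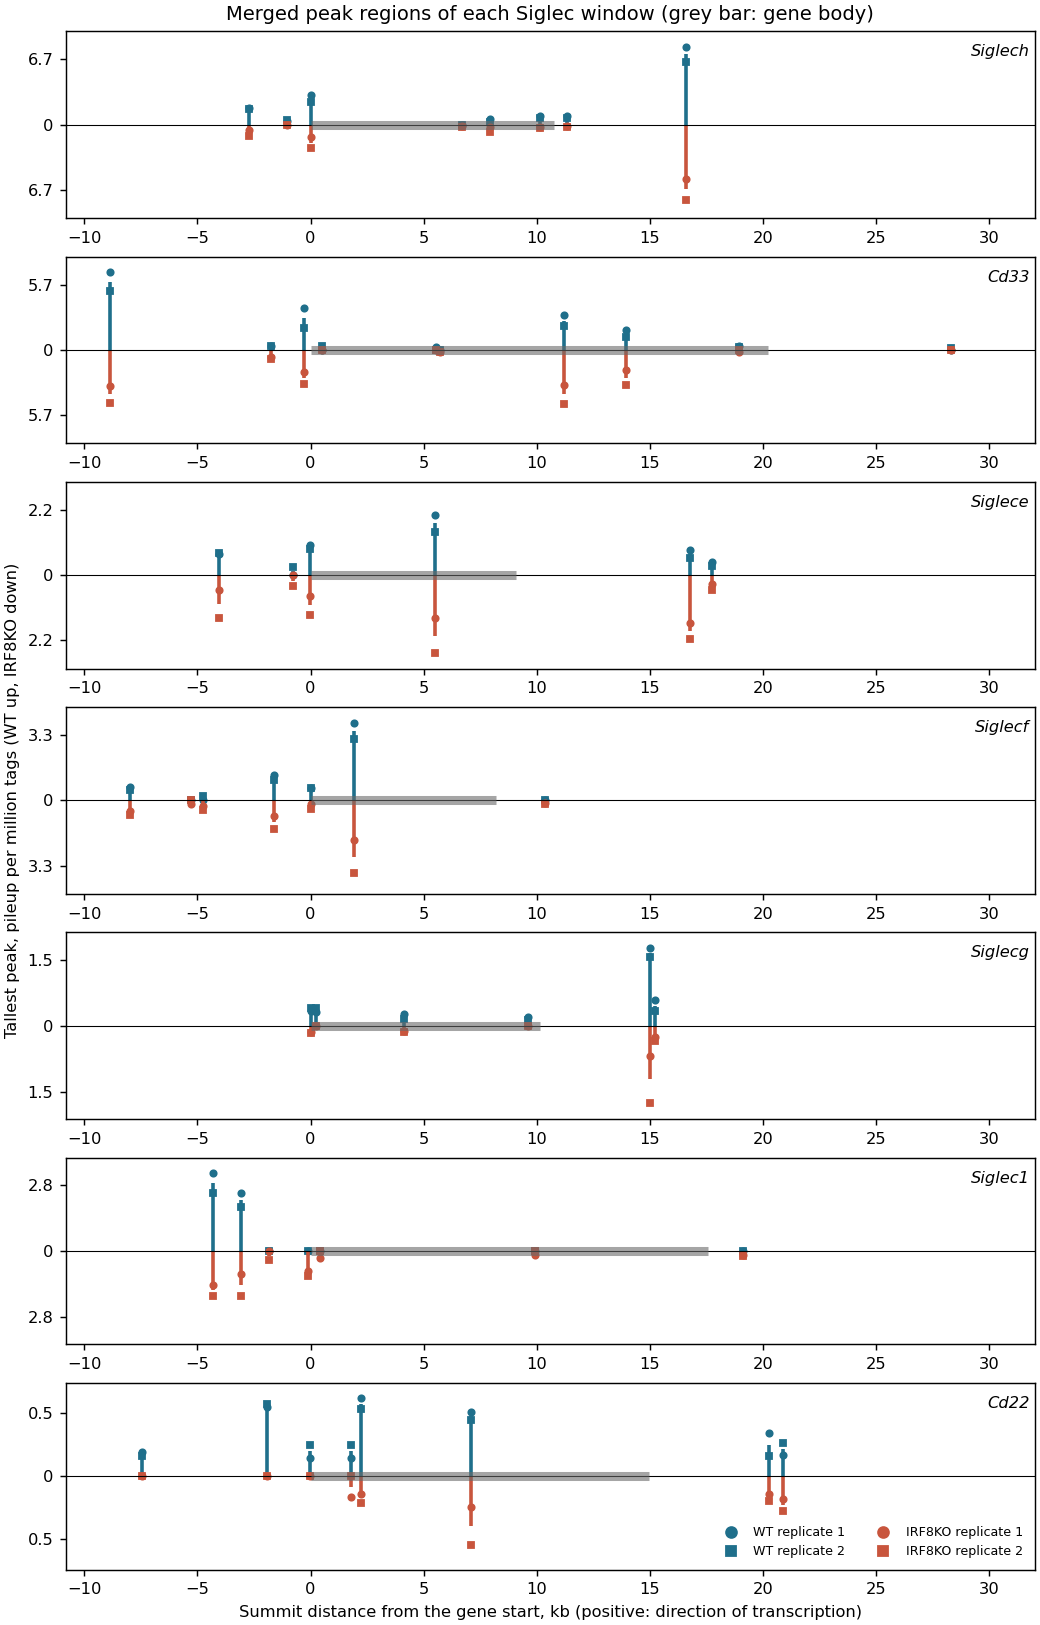
Mean normalised pileup of each region by summit distance from the gene start (horizontal axis, kb; grey bars mark gene bodies), drawn upward for WT and downward for IRF8KO, with a point for each library and a separate vertical scale for each gene. Regions upstream of Cd22 appear in WT alone, and the region at the Siglec1 start in IRF8KO alone.

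Siglec1 (minus strand of chromosome 2, 131069220 to 131086765) encodes sialoadhesin, or CD169, a long receptor without inhibitory motifs that is known from border and lymphoid tissue macrophages and is induced by interferon. Peaks were called at its start in the IRF8KO libraries alone, whereas 2 of its 3 regions upstream had peaks in all libraries. The start region, at 131086725 to 131087020, stood at 0.838 and 1.06 in IRF8KO, pileups of 66 and 70, and neither WT list held a peak there. At the WT tag numbers that level gives pileups of 44.5 and 46.3. The IRF8KO peaks had deposited fold enrichments of 6.49 and 5.95. It was the 1 IRF8KO-specific region of the family that was still present as such at a −log10 q of 5.

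The other IRF8KO-specific region lay 1568 bp past the gene end and was weak, at 0.178 and 0.211, which gives 9.13 and 9.51 at the WT tag numbers. The region 4298 bp upstream, at 131090851 to 131091223, stood at 3.28 and 2.45 in WT and 1.42 and 1.90 in IRF8KO, a difference of -0.75 ± 0.40 (adjusted p 0.284) and of -0.49 ± 0.18 after centring (adjusted p 0.0320). It also passed without IRF8KO replicate 2 (-0.95, adjusted p 0.0421). The region 3084 bp upstream, which holds the other ISRE match of the family, had a strict peak in all 4 libraries. It gave 2.45 and 1.86 in WT and 0.977 and 1.90 in IRF8KO and did not pass on either scale (adjusted p 0.441 and 0.197). The summed level of the window overlapped between genotypes.

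Of 5 markers of border macrophages, 3 had a region over the start. Of these 2 could be tested, and 1 was higher in IRF8KO as scaled to tags (0.593% of all start regions were) and 2 after centring (5.31% of all were). Cd163, a scavenger receptor gene, had an IRF8KO-specific region at 0.520 and 1.10. Pf4, a chemokine gene, rose from 0.447 and 0.327 in WT to 1.29 and 1.89 in IRF8KO (1.78 ± 0.44, adjusted p 0.00155). Mrc1, the mannose receptor gene, stood at 0.213 and 0.205 in WT and 0.470 and 0.664 in IRF8KO and passed after centring and not as scaled to tags (adjusted p 6.82e-05 and 0.0558). Lyve1 and Cbr2 had no region over the start in any library. The summed level of the list was 0.532 to 0.660 in WT and 2.28 to 3.65 in IRF8KO. Their part in the Siglec1 result was not tested.

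**Figure D4:**
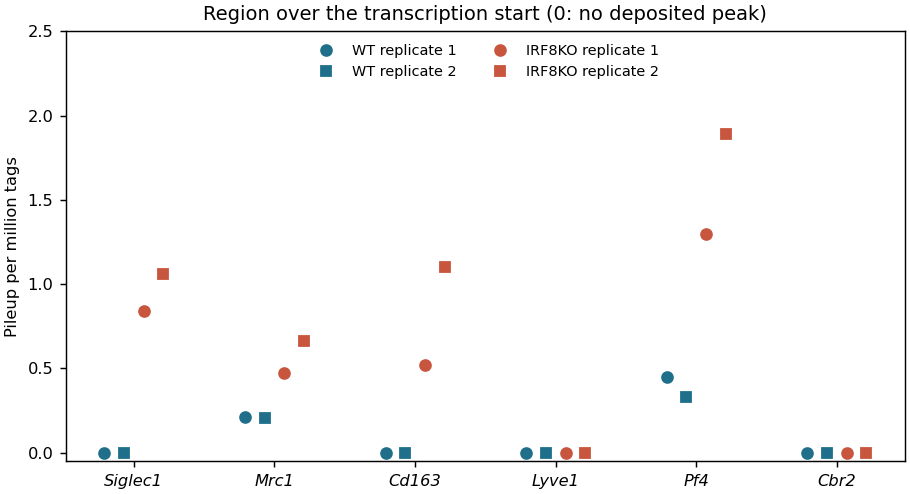
Normalised pileup (vertical axis) of the region over the transcription start of Siglec1 and of the 5 border macrophage markers, with a point for each library; 0 means that the list holds no peak. Siglec1 and Cd163 are at 0 in both WT libraries, and Lyve1 and Cbr2 are at 0 in all 4.

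Of 12 signalling partners, 11 could be tested, and 1 was lower in IRF8KO and 0 higher, against 2.23% and 0.593% of the start regions of all protein-coding genes. The median log2 difference was -0.22. Fyn, a Src family kinase gene, was the one that fell, from 5.47 and 5.46 in WT to 1.55 and 2.52 in IRF8KO (-1.42 ± 0.39, adjusted p 0.00584). The start of Tyrobp, which encodes DAP12, stood at 3.26 and 2.47 in WT and 2.23 and 2.76 in IRF8KO (adjusted p 0.841). Those of Ptpn6 and Ptpn11, which encode SHP-1 and SHP-2, differed by -0.50 and -0.40 (adjusted p 0.526 and 0.657).

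Of 20 genes that make, transfer or remove sialic acid, 18 could be tested at the start. By limma 0 were lower and 0 higher as scaled to tags, with a median log2 difference of -0.32. After centring, 3 were lower (St3gal2, Neu1 and St6galnac4, with adjusted p of 0.0293, 0.0381 and 0.0487) and 1 was higher (St6galnac6, adjusted p 0.00269), against 7.59% lower and 5.31% higher among all start regions. St3gal2, St6galnac4 and St6galnac6 encode sialyltransferases and Neu1 the lysosomal sialidase.

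As a check of the labelled cell type, 6 of 7 microglia markers held a strict peak over the start in all 4 libraries. Sall1 had none over an annotated start. The median log2 difference of the 6 was -0.56, and P2ry12 was lower in IRF8KO (-1.45 ± 0.41, adjusted p 0.00771), as 2.23% of all start regions were. After centring Cx3cr1 was also lower (adjusted p 0.0219), as 7.59% of all were. The 4 oligodendrocyte markers had no region over the start. Of 3 astrocyte markers 2 could be tested. Aldh1l1 was higher in IRF8KO (adjusted p 0.00404), as 0.593% of all start regions were, and Gfap did not pass (0.22, adjusted p 0.770). Of 3 neuron markers Syt1 alone had a region, at 0 to 0.225. Of 5 plasmacytoid dendritic cell markers, Ccr9 and Bst2 had a strict region in all libraries and neither passed (adjusted p 0.742 and 0.910). Tag numbers ran from 46948938 to 48896408 in WT and from 66224648 to 78793572 in IRF8KO, so that depth followed genotype. Tag size did too, at 50 bp in WT and 49 bp in IRF8KO. Neither can be told apart from genotype in which peaks were called. The deepest library, IRF8KO replicate 1, had the fewest strict peaks, 83996 against 95921 to 98863 in the others.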

How the data were processed

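Peak lists were deposited for 4 ATAC-seq libraries. MACS 2.1.1.20160309 was run by the authors on single libraries with no control and a p limit of 0.01, per the file headers, with cut sites shifted by -37 bp and extended to 73 bp. The submitters' processing notes name bcl2fastq, Bowtie2, MACS2, deepTools and the mm10 build. The deposited pileup is a whole-number signal and carries no depth scaling. Fold enrichment, as deposited, is a ratio to the local background, and p and q are deposited as −log10 values. Although the headers announce no q, the column was filled, rose with p and was used. On GRCm38, 44.2% to 46.0% of protein-coding starts lay in a strict peak, against 1.97% to 2.15% of positions 20000 bp away, and no peak lay past a chromosome end.

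Peaks repeated for several summits were reduced to 1, with its tallest summit. Other chromosomes than the autosomes and X were left out. Regions shared at least 1 bp with a peak. Pileup was divided by the header tags and multiplied by 1000000, which assumes that it scales with tag number. The limma fit (version 3.58.1, R 4.3.3, variance prior following the mean level, pseudocount 0.1) covered all regions with a peak in all 4 libraries, and p-values were adjusted over all of them. A fold change on this scale understates that of low regions. On simulated data for 58550 regions, 66.0% of regions changed by 1 on the log2 scale and 100% of those changed by 2 were called. Unchanged regions gave 12 false calls. The simulated spread came from replicate differences with their median removed, and no library-wide shift was added. These shares therefore do not apply to the fit as scaled to tags, which keeps the lower level of IRF8KO replicate 1. Named were each start region, genotype-specific region, called region and the tallest region of each gene. The members, gene lists and motifs were chosen with earlier results of these data known. A further B cell marker is not reported here. The alternatives were another q threshold, all deposited peaks, other windows and overlaps, other scalings, pseudocounts and filters, a replicate block and each library left out.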

Additional observations from a re-analysis of the deposited data

How the results depend on the processing

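Leaving the trend out of the limma variance prior was chosen after seeing the data and gave 3 lower and 1 higher region. WT-specific regions numbered 2. They numbered 6 with all deposited peaks, 1 in gene bodies alone and 2 to 6 with 1 library left out. IRF8KO-specific regions numbered 3. They numbered 7 with all deposited peaks, 1 at a −log10 q of 5, 5 with 20 kb flanks and 3 to 6 with 1 library left out, since fewer libraries then had to meet the rule.

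Regions lower in IRF8KO by limma numbered 2. They numbered 6 after centring, 7 after quantile normalization, 1 with the deposited fold enrichment, 5 without the filter and 1 in gene bodies alone. Over all regions, lower and higher calls numbered 7254 and 7769 of 58550 after centring and 7055 and 7278 of 58550 after quantile normalization. With the deposited fold enrichment 2087 and 1428 of 58550 were called, and without the filter 14057 and 5576 of 155546. Lower calls over the whole genome also rose without IRF8KO replicate 2. The fit without the filter, in which absent peaks took the lowest deposited pileup, added the Cd22 and Siglech upstream regions and the WT-specific Siglecg region as lower, and the Siglec1 start as higher. Each of these regions had no peak in 1 genotype, whose values were thus filled in at nearly equal levels. The added calls therefore largely restate which lists held a peak. Lower regions numbered 0 at a mean normalised pileup of at least 0.5, which removes both called regions, and 0 to 10 with 1 library left out. The highest came without IRF8KO replicate 2, and 0 remained without WT replicate 1 or 2. Regions higher in IRF8KO numbered 1. They numbered 4 after centring and after quantile normalization, 0 with the deposited fold enrichment, 2 without the filter, 0 in gene bodies alone and 0 to 2 with 1 library left out. With the replicate number as a block, 0 were lower and 0 were higher. The labels do not say that numbers pair libraries. After centring, the correlation of the replicate differences between genotypes was -0.0153. Centring removes any library-wide shift, so this value cannot settle whether the libraries were paired. Apart from these named reasons the cause was not tested. The summed level of the 7 windows differed by -5.48, less than the SD of 8.23 in WT and 14.1 in IRF8KO, and ran from -15.5 to 4.50 with 1 library left out. After centring it was 1.88, so its sign is not settled. The lowest deposited pileups were 6 to 8, and a weak region without a listed peak may lie below them.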
